A study of Mus musculus with 48 samples.

Results

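Transcripts of 10 genes of the T cell receptor complex and of cytotoxic granules were followed in mouse B16-D5 melanoma tumors. The genes were chosen by name, for what their proteins do, out of 55450 gene identifiers in the deposited count table. They are Cd3e, Cd3g and Cd3d, which encode chains of the CD3 complex, Cd8a, Cd8b1 and Cd4, which encode the coreceptors, and Gzma, Gzmb, Prf1 and Nkg7, which encode components of cytotoxic granules.

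T cells recognise peptides bound to MHC through a receptor whose signal is carried into the cell by the CD3 chains. CD8 binds MHC class I and marks most cytotoxic T cells, whereas CD4 binds MHC class II and marks helper and regulatory T cells. On contact with a target, cytotoxic T cells and NK cells release granules that hold the pore former perforin and the granzyme proteases, and in a tumor these transcripts are commonly read as a measure of cytotoxic lymphocytes. PD-1 is an inhibitory receptor on activated T cells, and anti-PD-1 antibody blocks it. iNOS, encoded by Nos2, produces nitric oxide.

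The study asked what anti-PD-1 does to the tumor transcriptome over time, and whether that depends on iNOS in the host. All hosts were C57BL/6J mice or iNOS KO mice, bought at 4 weeks of age and kept for 2 weeks, and all received B16-D5 melanoma cells under the skin of the flank 8 days before therapy. Antibody, either anti-PD-1 or control IgG, was given at 250 µg in 200 µL PBS on days 0 and 3, and untreated mice received none. The time course held 30 tumors of WT mice in 10 groups of 3, which were untreated at 0 hours, and untreated, IgG-treated or anti-PD-1-treated at 6 hours, day 1 and day 3. The second experiment held 18 tumors at day 7 in 6 groups of 3, which combined WT or iNOS KO hosts with no treatment, IgG or anti-PD-1. The knockout concerns the host alone, since the same B16-D5 cells were injected into both genotypes. Each library came from whole tumor tissue of 1 mouse, so that fewer cells of a type and less RNA per cell cannot be told apart.

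Library totals ran from 25574203 to 47687872 counts in the time course and from 11625862 to 40959309 at day 7, and 3 counts corresponded to 0.0688 to 0.197 CPM, which are counts scaled to a common library total after TMM normalization. All 10 genes passed the filter on low counts in both experiments. Melanocyte genes such as Dct, a pigment enzyme, dominated the marker lists, with summed levels of 8890 to 19100 CPM in the time course and 9170 to 18000 CPM at day 7. Nos2, the targeted gene, had 37 to 233 counts in the 9 tumors labelled KO and 48 to 144 in the 9 labelled WT at day 7. These counts did not separate the genotypes. A count over the whole gene does not show which exons the reads came from, the deleted part was not given in the sources used here, and the injected cells kept Nos2, so the genotype labels were not checked by it. Genes of sensory receptors, which are rarely expressed outside sensory tissue, served as a measure of reads outside expressed genes. Over 1502 such genes the sum was 12.3 to 319 CPM in 45 libraries, but 3710 CPM in replicate 3 and 1300 CPM in replicate 4 of anti-PD-1 WT tumors, and 916 CPM in replicate 1 of untreated KO tumors, all at day 7. For the comparisons of the 10 genes that those 3 libraries enter, values without them are given below, except for IgG against untreated in KO. Fits without all 3 keep 1 anti-PD-1 WT tumor, replicate 2.

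The CD3 chains lie together on chromosome 9 (GRCm38, GENCODE vM21). Cd3g (44969572 to 44980431, minus strand) and Cd3d (44981786 to 44987339, plus strand) point away from each other with 1354 bases between them, and Cd3e (44998740 to 45009627, minus strand) follows. Cd3e overlaps 2 annotated genes, the antisense gene Gm48719 and, on its own strand, Gm48720. Cd8b1 (71322788 to 71337494) and Cd8a (71373427 to 71379173) are neighbours on the plus strand of chromosome 6 with 35932 bases between them. Cd4 lies on the same chromosome at 124864692 to 124888221.

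The granule genes lie on 4 chromosomes. Their promoters are shown because 1 of several short words searched was in all of them and in no receptor-gene promoter at hand. RefSeq promoter windows (GRCm38.p6, 250 bases before to 50 after the start) were at hand for 8 of the 10 genes, all but Cd8b1 and Cd4. The word TGTGGT, bound by RUNX factors, was searched on both strands (ACCACA on the other), and its matches are in capitals.
Gzma, granzyme A, chr13:113100932-113101231, minus strand: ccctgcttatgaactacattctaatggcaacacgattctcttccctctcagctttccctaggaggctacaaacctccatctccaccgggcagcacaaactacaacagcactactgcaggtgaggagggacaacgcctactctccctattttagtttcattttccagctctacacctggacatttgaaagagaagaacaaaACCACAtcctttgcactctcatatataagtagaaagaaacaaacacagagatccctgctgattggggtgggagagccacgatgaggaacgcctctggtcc
Gzmb, granzyme B, chr14:56262285-56262584, minus strand: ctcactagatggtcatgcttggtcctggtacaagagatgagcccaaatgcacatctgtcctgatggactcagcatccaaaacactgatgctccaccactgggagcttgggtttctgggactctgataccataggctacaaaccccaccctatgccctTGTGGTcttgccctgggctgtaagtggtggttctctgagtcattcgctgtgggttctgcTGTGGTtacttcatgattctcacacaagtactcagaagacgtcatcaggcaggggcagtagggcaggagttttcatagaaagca
Prf1, perforin, chr10:61297586-61297885, plus strand: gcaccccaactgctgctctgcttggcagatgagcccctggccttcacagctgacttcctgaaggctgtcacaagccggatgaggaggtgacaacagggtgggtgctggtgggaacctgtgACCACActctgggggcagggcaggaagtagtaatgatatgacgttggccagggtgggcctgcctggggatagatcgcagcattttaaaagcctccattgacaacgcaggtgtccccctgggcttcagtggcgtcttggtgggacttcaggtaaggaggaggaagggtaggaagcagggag
Nkg7, a granule membrane protein, chr7:43436888-43437187, plus strand: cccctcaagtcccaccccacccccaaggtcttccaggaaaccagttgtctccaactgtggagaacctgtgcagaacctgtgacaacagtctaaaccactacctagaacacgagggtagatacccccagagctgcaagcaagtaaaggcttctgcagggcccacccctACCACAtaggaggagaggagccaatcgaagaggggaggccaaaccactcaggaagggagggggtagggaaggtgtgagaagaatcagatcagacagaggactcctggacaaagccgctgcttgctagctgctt
The word began 50 bases before the start in Gzma, 93 and 34 before it in Gzmb, 130 before it in Prf1 and 83 before it in Nkg7. It was found in none of the 4 windows of Cd3e, Cd3g, Cd3d and Cd8a, and in 16.8% of 32851 promoter windows. The ETS word CAGGAA, searched on both strands, occurred in Cd3e, Cd3d, Prf1 and Nkg7, against 30.6% of windows, and the T-box word GGTGTGA, likewise on both strands, in Nkg7 alone, against 3.98%. The E-box CANNTG was in all 8 windows and in 72.3% of all, and the palindrome TGACGTCA was in none of the 8 and in 1.79% of all. The matches describe the letters of these windows and nothing about binding.

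Per kilobase of exon, Gzma had the highest median level of the 10 genes and Cd3d the lowest. In the time course the median level was 5.85 CPM per kb for Gzma, 2.2 for Gzmb, 2.05 for Nkg7 and 1.4 for Prf1. Among the receptor genes it was 1.66 CPM per kb for Cd3e, 0.897 for Cd4, 0.614 for Cd8b1, 0.479 for Cd3g, 0.243 for Cd8a and 0.2 for Cd3d. At day 7 Gzma again led with 1.62 CPM per kb, and Cd3d was again last with 0.154. Summed over the 10 genes, the level ran from 12.4 to 130 CPM with a median of 25.15 in the time course, and from 2.52 to 36.3 CPM with a median of 12.5 at day 7. The experiments were normalized separately, and this difference was not tested.

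**Figure D1:**
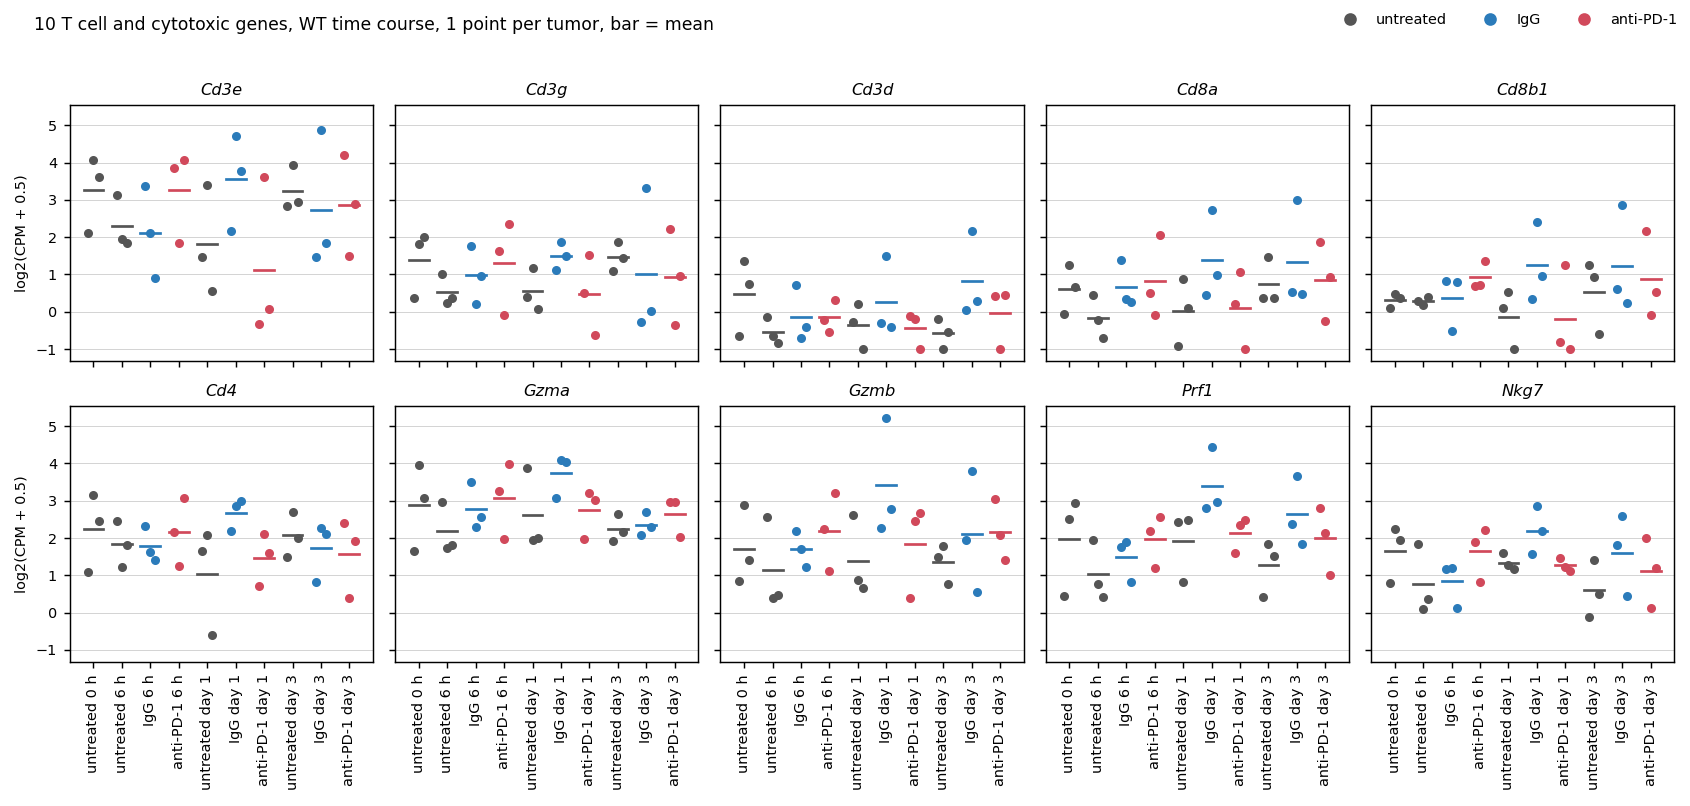
Levels of the 10 genes in the 30 WT tumors of the time course, 1 panel per gene, as log2(CPM + 0.5) on the y axis and the 10 groups on the x axis. Each point is 1 tumor and each bar the mean of 3 tumors. The tumors of a group spread widely, and replicate 4 of IgG at day 1 and replicate 3 of IgG at day 3 stand high in most panels.

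Among the CD3 chains, Cd3e (epsilon) was the most abundant. Untreated tumors had 165, 551 and 442 Cd3e counts at 0 hours, 265, 124 and 110 at 6 hours, 84, 357 and 37 at day 1, and 266, 581 and 257 at day 3. After anti-PD-1 the counts were 547, 98 and 566 at 6 hours, 9, 474 and 22 at day 1, and 784, 83 and 272 at day 3. After IgG they were 322, 131 and 39 at 6 hours, 156, 1058 and 510 at day 1, and 77, 938 and 116 at day 3. Groups of the same time overlapped. At day 1 after anti-PD-1, 1 tumor carried nearly all of the signal, and the highest level exceeded the lowest by a factor of 39.7. The lowest, replicate 2 with 9 counts, had 1.71 counts per kb over sensory receptor genes, and Cd3e has 4.08 kb of exon. That rate would give most of the 9 counts, so the factor is not read as a ratio of Cd3e levels. In CPM the group means ran from 4.16 ± 6.48 (SD, n = 3) after anti-PD-1 at day 1 to 14.3 ± 10.9 (n = 3) after IgG at day 1. Cd3g (gamma) ran from 0.99 ± 0.45 CPM in untreated tumors at 6 hours to 3.45 ± 5.26 after IgG at day 3 (n = 3 each), the latter set by 1 tumor with 313 counts beside 11 and 19. Cd3d (delta) was low throughout, with 0 to 130 counts and a median of 13, so that its folds rest on few reads.

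The coreceptors followed the same uneven pattern. Cd8a, the alpha chain found in both forms of CD8, had 20, 64 and 41 counts in untreated tumors at 0 hours, 28, 13 and 4 at 6 hours, 1, 47 and 22 at day 1, and 32, 89 and 29 at day 3. After anti-PD-1 the Cd8a counts were 36, 14 and 128 at 6 hours, 20, 65 and 0 at day 1, and 138, 12 and 56 at day 3. After IgG they were 69, 27 and 20 at 6 hours, 34, 255 and 58 at day 1, and 32, 245 and 33 at day 3. Again the ranges overlapped in each pair of groups of the same time, and 1 tumor stood above the other 2 in the IgG groups of days 1 and 3. Cd8b1, the beta chain, lay between 0 and 223 counts and was highest in those same IgG tumors, with 199 and 223. Cd4 ranged from 2.17 ± 1.83 CPM in untreated tumors at day 1 to 6.08 ± 1.79 CPM after IgG at day 1 (SD, n = 3 each). Per kilobase, the level of Cd8a was 0.444 times that of Cd4 over the time course and 0.513 times at day 7.

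Of the granule genes, Gzma, a protease of granules in T and NK cells, was the most even, with a median ratio of 2.5 between the highest and lowest tumor of a group. Gzmb, the caspase-activating granzyme, had 57, 232 and 81 counts in untreated tumors at 0 hours, 174, 30 and 32 at 6 hours, 210, 47 and 41 at day 1, and 93, 117 and 44 at day 3. After anti-PD-1 its counts were 166, 53 and 306 at 6 hours, 25, 204 and 236 at day 1, and 337, 133 and 85 at day 3. After IgG they were 134, 97 and 52 at 6 hours, 168, 1517 and 250 at day 1, and 114, 445 and 36 at day 3. The tumor with 1517 counts was the same replicate 4 that led for Cd3e and Cd8a. Prf1, perforin, ran from 1.8 ± 1.36 CPM in untreated tumors at 6 hours to 11.7 ± 8.17 CPM after IgG at day 1, and Nkg7, needed for granule release, from 1.16 ± 0.881 CPM in untreated tumors at day 3 to 4.44 ± 2.22 CPM after IgG at day 1 (SD, n = 3 each).

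Ordered by group mean, IgG at day 1 came first for 6 genes (Cd3e, Cd4 and the 4 granule genes) and IgG at day 3 for the other 4. None of the 90 neighbours in these orders were separate: in each, at least 1 tumor of the lower group reached into the range of the higher, and the means differed by less than the larger SD. At day 7, 4 of 50 neighbours did not overlap, and 11 differed by more than the larger SD.

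The first comparison asked whether anti-PD-1 changed these transcripts relative to IgG in WT tumors. At 6 hours 9 of the 10 genes were higher after anti-PD-1 and 1 was lower, with a median log2 fold change of 0.61 beside −0.07 over all genes. None passed edgeR's quasi-likelihood test (0 of 10 at an adjusted p under 0.05, with 0% of all 26848 genes called, 0 of 10 at an unadjusted p under 0.05 and 0 of 10 called by DESeq2). Nkg7 differed by 1.05 ± 0.743 (log2, SE) and Cd3e by 1.15 ± 1.12, both with an edgeR adjusted p of 1. Cd8a differed by 0.48 ± 1.2 and Gzmb by 0.75 ± 0.96. Without replicate 5 of anti-PD-1 the median was 0.02 and Gzmb stood at 0.07, and Cd8a was lower rather than higher, at −0.77.

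At day 1 all 10 genes were lower after anti-PD-1 than after IgG, with a median of −1.64 beside −0.01 over all genes. Cd4, Prf1 and Nkg7 did not overlap between the groups, where 3.72% of all genes did not overlap in that direction. Again 0 of 10 passed, by edgeR (0% of all genes called, 0 of 10 at an unadjusted p under 0.05) and by DESeq2. Prf1 differed by −1.52 ± 0.739 and Gzmb by −2.01 ± 0.982, each with an edgeR adjusted p of 1, and Cd8a by −1.92 ± 1.23. Without replicate 4 of IgG the median was −0.83. At day 3, 9 of 10 were lower, the median was −0.66 beside 0 over all genes, and 0 of 10 passed (0% of all genes called by edgeR, 0 of 10 at an unadjusted p under 0.05 by either tool). Prf1 differed by −0.75 ± 0.729, Cd3d by −1.61 ± 1.48, Cd8a by −0.91 ± 1.19 and Gzmb by −0.39 ± 0.951. Without replicate 3 of IgG the median turned to 0.73.

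The change of the anti-PD-1 to IgG difference with time was tested as an interaction. From 6 hours to day 1 it moved down for all 10 genes with a median of −2.19, and from 6 hours to day 3 for all 10 with a median of −1.37, beside 0.05 over all genes in both. Neither passed for any gene (0 of 10, 0% of all genes called by edgeR). Without replicate 3 of IgG at day 3 the second median turned to 0.23. Nkg7 had the smallest unadjusted edgeR p, 0.0413, with a difference of −2.25 ± 1.05, and was the 1 gene under 0.05 beside 1.86% of all genes from 6 hours to day 1. In that comparison 0 of 10 passed by DESeq2. Prf1 differed by −2.12 ± 1.04 there, and from 6 hours to day 3 by −1.35 ± 1.03, beside −1.71 ± 1.04 for Nkg7. Averaged over the 3 times, anti-PD-1 against IgG was lower for all 10, with a median of −0.48 and Cd3d at −1.23 ± 0.858 and Prf1 at −0.55 ± 0.421, a smallest edgeR adjusted p of 0.914, and 0 of 10 at an unadjusted p under 0.05 by edgeR or DESeq2. Without replicate 3 of IgG at day 3 that median was −0.05.

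IgG was also compared with untreated tumors of the same time. These comparisons share samples with those above, and are given side by side. At day 1 all 10 genes were higher after IgG, with a median of 1.59 beside 0.04. Gzmb (2.56 ± 1.0) and Prf1 (1.63 ± 0.741) had unadjusted p values of 0.0173 and 0.0376 and an edgeR adjusted p of 0.859 each. These 2 of 10 stood at an unadjusted p under 0.05 beside 4.01% of all genes, 2 of 10 did not overlap beside 6.26%, and 0 of 10 passed by edgeR or DESeq2 (0% of all genes called by edgeR). Without replicate 4 of IgG the median fell to 0.95 and Gzmb to 1.05. Genes shared by all leukocytes, such as Laptm5 and Ptprc, moved with them: their sum was 422 to 567 CPM after IgG and 144 to 323 CPM in untreated tumors, and the macrophage markers summed to 382 to 839 CPM against 286 to 584 CPM. Muscle genes reached 3810 CPM and keratinocyte genes 508 CPM in replicate 6 of IgG at day 1, against at most 20.6 and 2.4 CPM in untreated tumors. The part of these in the result was not tested. At day 3, 9 of 10 were higher after IgG with a median of 1.27, which became −0.3 without replicate 3 of IgG. Cd3d differed by 3.17 ± 1.59, and Prf1 (1.66 ± 0.747) was the 1 gene at an unadjusted p under 0.05, where 1.36% of all genes stood, 1 gene did not overlap beside 6.53%, and 0 of 10 passed by edgeR (0% of all genes called) or DESeq2. At 6 hours 8 of 10 were higher after IgG with a median of 0.39 beside 0.1 (−0.12 without replicate 1 of IgG), Cd8a at 1.42 ± 1.24 and Gzma at 0.65 ± 0.613, and 0 of 10 passed by edgeR (0% of all genes called, 0 of 10 at an unadjusted p under 0.05) or DESeq2.

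Anti-PD-1 against untreated tumors gave a median of 1.07 at 6 hours (10 of 10 higher), 0.12 at day 1 (6 of 10) and 0.55 at day 3 (7 of 10). On leaving out 1 tumor the median ran from 0.58 to 1.89 at 6 hours, from −0.46 to 0.71 at day 1 and from −0.26 to 0.92 at day 3, the lowest value of days 1 and 3 coming without replicates 4 and 3 of anti-PD-1. In each, 0 of 10 passed by edgeR or DESeq2, 0 of 10 stood at an unadjusted p under 0.05 by either, and 0% of all genes were called by edgeR. At 6 hours Gzma differed by 1.07 ± 0.615 and Cd8a by 1.9 ± 1.25, and Cd8b1 alone did not overlap between the groups, beside 2.67% of all genes. The smallest p values of day 1 were those of Gzmb (0.54 ± 0.958) and Cd8b1 (0.39 ± 1.27), and of day 3 those of Prf1 (0.92 ± 0.736) and Gzmb (1.06 ± 0.966). Untreated tumors at 6 hours, day 1 and day 3 lay below those at 0 hours for 10, 10 and 8 of the 10 genes, with medians of −1.05, −0.7 and −0.5 and 0 of 10 passed (0% of all genes called by edgeR, 0 of 10 at an unadjusted p under 0.05 by either tool). Cd3d was among the 2 smallest p values each time (−2.49 ± 1.56, −1.79 ± 1.51 and −2.56 ± 1.56), with Prf1 at 6 hours (−1.31 ± 0.744), Cd4 at day 1 (−1.2 ± 0.778) and Nkg7 at day 3 (−1.35 ± 0.747). Without replicate 2 of the 0 hour tumors the day 3 median was 0.14. Markers of other tissue moved with these comparisons: keratinocyte markers summed to 13.6 to 3800 CPM at 0 hours and to 7.95 to 16.3, 1.07 to 2.4 and 0.801 to 1.44 CPM in untreated tumors at 6 hours, day 1 and day 3, and muscle markers to 639 to 4950 CPM at 0 hours and to 41.9 to 811, 2.56 to 20.6 and 3.68 to 320 CPM. All 4 mast cell markers were lower than at 0 hours each time, with medians of −2.02, −1.57 and −1.55. The part of these markers in the result was not tested. Averaged over treatments, Prf1 was higher at day 1 than at 6 hours by 1.14 ± 0.426 (edgeR adjusted p = 0.197), the 1 gene at an unadjusted p under 0.05 beside 9.39% of all genes, and Gzmb by 0.77 ± 0.554. At day 3 against 6 hours 8 of 10 were higher with a median of 0.6 (−0.13 without replicate 3 of IgG at day 3), Prf1 at 0.59 ± 0.424 and Cd8a at 0.96 ± 0.696. In both, 0 of 10 passed by edgeR (0% of all genes called) or DESeq2.

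**Figure D2:**
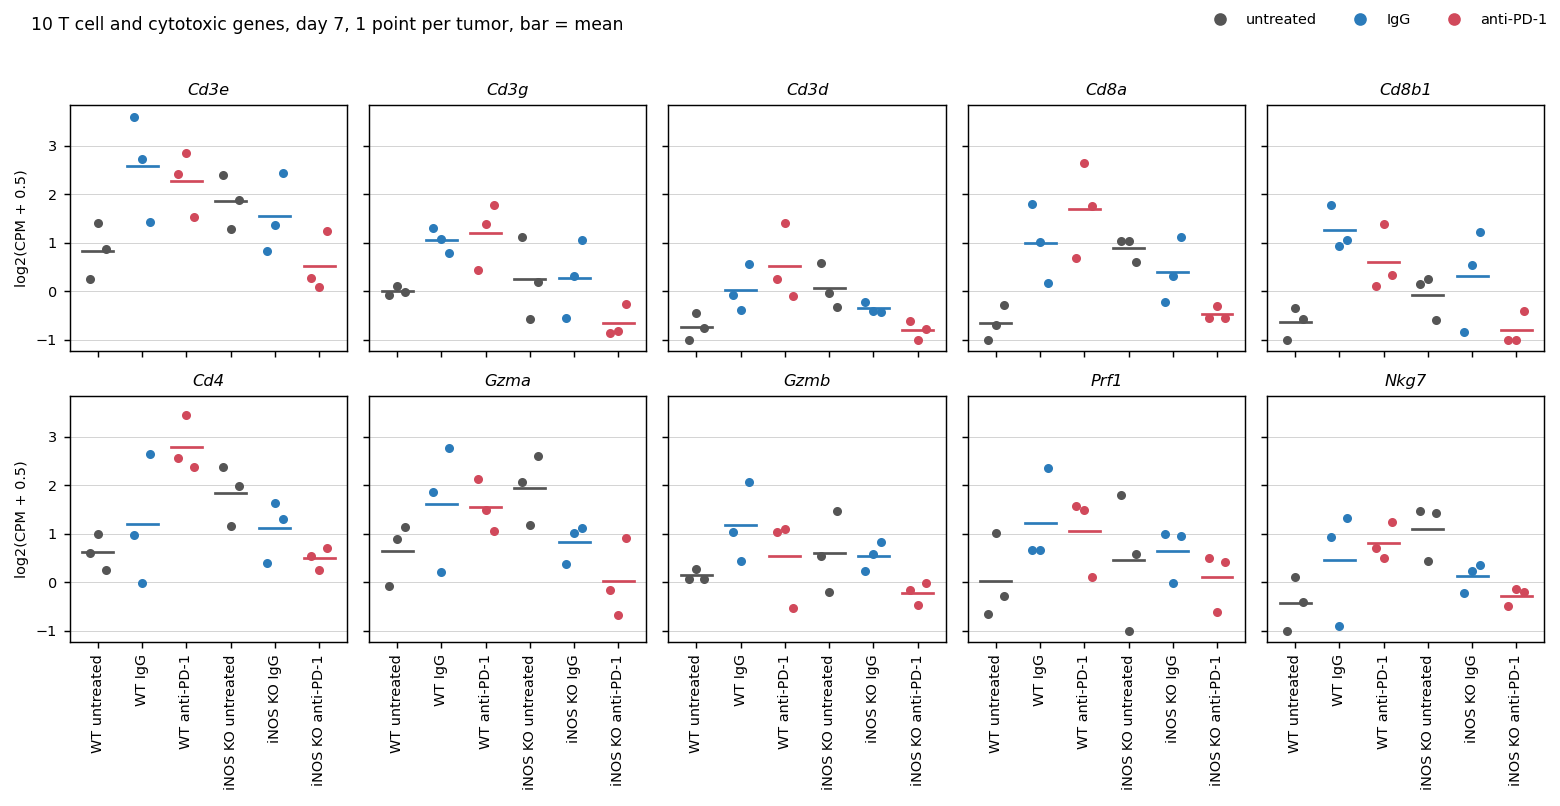
Levels of the 10 genes in the 18 tumors of day 7, 1 panel per gene, as log2(CPM + 0.5) on the y axis and the 6 groups of host genotype (as labelled) and treatment on the x axis. Each point is 1 tumor and each bar the mean of 3 tumors. Tumors labelled KO lie low after anti-PD-1 in all panels, and untreated WT tumors lie close to them.

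At day 7 the CD3 chains were lowest in anti-PD-1-treated tumors labelled KO and in untreated WT tumors. Cd3e had 26, 75 and 46 counts in untreated WT tumors, 386, 184 and 59 after IgG and 169, 102 and 50 after anti-PD-1. In tumors labelled KO it had 116, 57 and 119 counts untreated, 43, 81 and 182 after IgG and 27, 18 and 71 after anti-PD-1. As a level, the anti-PD-1 groups stood at 4.63 ± 2.15 CPM in WT and 1.04 ± 0.701 CPM in KO (SD, n = 3 each), without overlap. Cd3g had 30, 32 and 61 counts after anti-PD-1 in WT and 2, 2 and 13 in KO, and Cd3d had 24, 33 and 9 against 6, 0 and 3.

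Cd8a was at or near 0 in untreated WT tumors at day 7. Its counts were 0, 4 and 11 in untreated WT tumors, 99, 46 and 17 after IgG and 39, 88 and 60 after anti-PD-1. In tumors labelled KO they were 38, 46 and 38 untreated, 12, 29 and 62 after IgG and 7, 10 and 7 after anti-PD-1. All 3 WT tumors given anti-PD-1 lay above all 3 untreated ones, and in KO the order was the opposite. Cd4 had 39, 52 and 24 counts in untreated WT tumors, 49, 15 and 155 after IgG and 191, 158 and 98 after anti-PD-1. In KO it had 115, 51 and 130 untreated, 28, 102 and 73 after IgG and 36, 22 and 44 after anti-PD-1. Cd8b1 had 20, 32 and 16 counts after anti-PD-1 in WT and 0, 0 and 10 in KO.

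The granule genes also varied between the tumors of a group. Gzma had 17, 47 and 59 counts in untreated WT tumors, 103, 20 and 170 after IgG and 135, 35 and 33 after anti-PD-1. In KO it had 90, 52 and 207 untreated, 27, 60 and 62 after IgG and 15, 4 and 53 after anti-PD-1. Gzmb had 55, 25 and 4 counts after anti-PD-1 in WT and 15, 7 and 19 in KO, which overlapped. Prf1 had 87, 35 and 12 against 35, 5 and 32, and Nkg7 40, 14 and 39 against 8, 13 and 14.

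**Figure D3:**
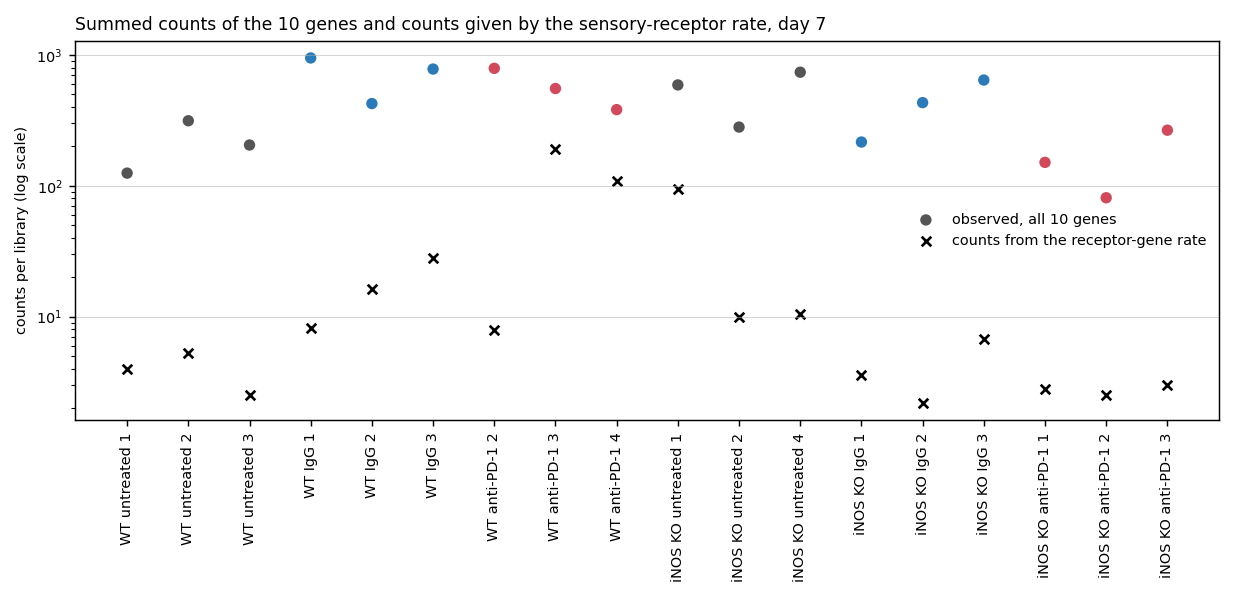
Summed counts of the 10 genes in each of the 18 day 7 libraries, beside the counts that the rate over sensory receptor genes would give over the same exon length, on a log axis. Receptor-rate counts reach 190 of 554 and 108.1 of 382 in replicates 3 and 4 of anti-PD-1 WT tumors.

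The receptor-gene rate bears on these low counts. Over the exons of the 10 genes it would give 190 of the 554 counts (34.3%) in replicate 3 of anti-PD-1 WT tumors, 108.1 of 382 (28.3%) in replicate 4, and 93.9 of 590 (15.9%) in replicate 1 of untreated KO tumors. In replicate 2 of anti-PD-1 WT tumors it would give 7.9 of 790, or 1%, and elsewhere at day 7 between 0.509% and 3.81%. For Cd8a it would give 28.5 of the 88 counts in replicate 3 and 16.2 of the 60 in replicate 4. For Gzmb in replicate 4 the 4 observed counts were fewer than the 6.4 of the rate.

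In WT tumors at day 7, anti-PD-1 against IgG gave no common direction, with 5 genes higher and 5 lower and a median of −0.08 beside 0.68 over all genes. Cd4 was the 1 gene at an unadjusted p under 0.05 (1.41 ± 0.668, edgeR adjusted p = 0.305), beside 10.6% of all genes in that direction. Cd8a differed by 0.92 ± 0.917 and Gzmb by −0.83 ± 0.852. In tumors labelled KO all 10 genes were lower after anti-PD-1 than after IgG, with a median of −1.4 beside 0. At an unadjusted p under 0.05 stood 4 of 10, beside 1.09% of all genes, and Cd3d, Cd8a and Gzmb did not overlap, beside 3.77%. Cd3g differed by −2.42 ± 1.0, Cd8b1 by −3.38 ± 1.48, Cd8a by −2.02 ± 0.967 and Gzmb by −1.4 ± 0.868, each with an edgeR adjusted p of 1. In both genotypes 0 of 10 passed by edgeR or DESeq2, and 0% of all genes were called by edgeR. The difference between the genotypes in this effect had a median of −1.71 beside −0.47, with all 10 lower in KO and 0 of 10 passed (0% of all genes called by edgeR, 0 of 10 called by DESeq2). The smallest p values were those of Cd4 (−2.37 ± 0.947) and Cd8a (−2.94 ± 1.33), each with an edgeR adjusted p of 0.67, and 2 of 10 stood at an unadjusted p under 0.05 beside 6.44% of all genes. Without the 3 libraries highest in receptor-gene reads, the WT median was −0.18, with 4 genes higher and 6 lower. The median difference between genotypes was then −1.33 with all 10 lower, Cd8a at −1.38 and Cd4 at −2.07. Both of these values rest on 1 anti-PD-1 WT tumor.

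Against untreated WT tumors, all 10 genes were higher after anti-PD-1, with a median of 2.09 beside 0.96 over all genes. At an unadjusted p under 0.05 stood 4 of 10 beside 24.8% of all genes, 7 of 10 did not overlap beside 16.3%, and 0 of 10 passed by edgeR (0% of all genes called). Cd8a differed by 4.46 ± 1.07 and Cd4 by 2.67 ± 0.699, each with an edgeR adjusted p of 0.142. DESeq2 called 3 of 10, namely Cd3d, Cd8a and Cd4, beside 5.73% of all genes. Without the 3 libraries, a fit that leaves 1 anti-PD-1 WT tumor, the median was 1.87, with Cd8a at 2.89 and Cd4 at 2.31. IgG was higher than untreated for all 10 too, with a median of 1.91 beside 0.14, and 3 of 10 stood at an unadjusted p under 0.05 beside 5.54%, and 6 of 10 did not overlap beside 6.79%. Cd8a (3.55 ± 1.03) and Cd3e (2.26 ± 0.666) had an edgeR adjusted p of 0.565, and 0 of 10 passed by edgeR (0% of all genes called) or DESeq2.

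In tumors labelled KO the same comparison ran the other way. All 10 genes were lower after anti-PD-1 than in untreated tumors, with a median of −2.41 beside −0.44, 5 of 10 stood at an unadjusted p under 0.05 beside 14.4%, and 6 of 10 did not overlap beside 8.46%. Gzma differed by −2.53 ± 0.83 (edgeR adjusted p = 0.271) and Cd4 by −1.83 ± 0.683 (0.283). By edgeR, which called 0.0422% of all genes, and by DESeq2, 0 of 10 passed. Without the 3 libraries 9 of 10 were lower, the median was −2.0 and Gzma differed by −2.51. IgG against untreated gave 8 of 10 lower and a median of −0.43, close to −0.45 over all genes, with Gzma at −1.46 ± 0.796 and Nkg7 at −1.54 ± 1.14, 2 of 10 without overlap beside 9.53%, 0 of 10 passed by edgeR or DESeq2, and 0.188% of all genes called by edgeR.

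**Figure D4:**
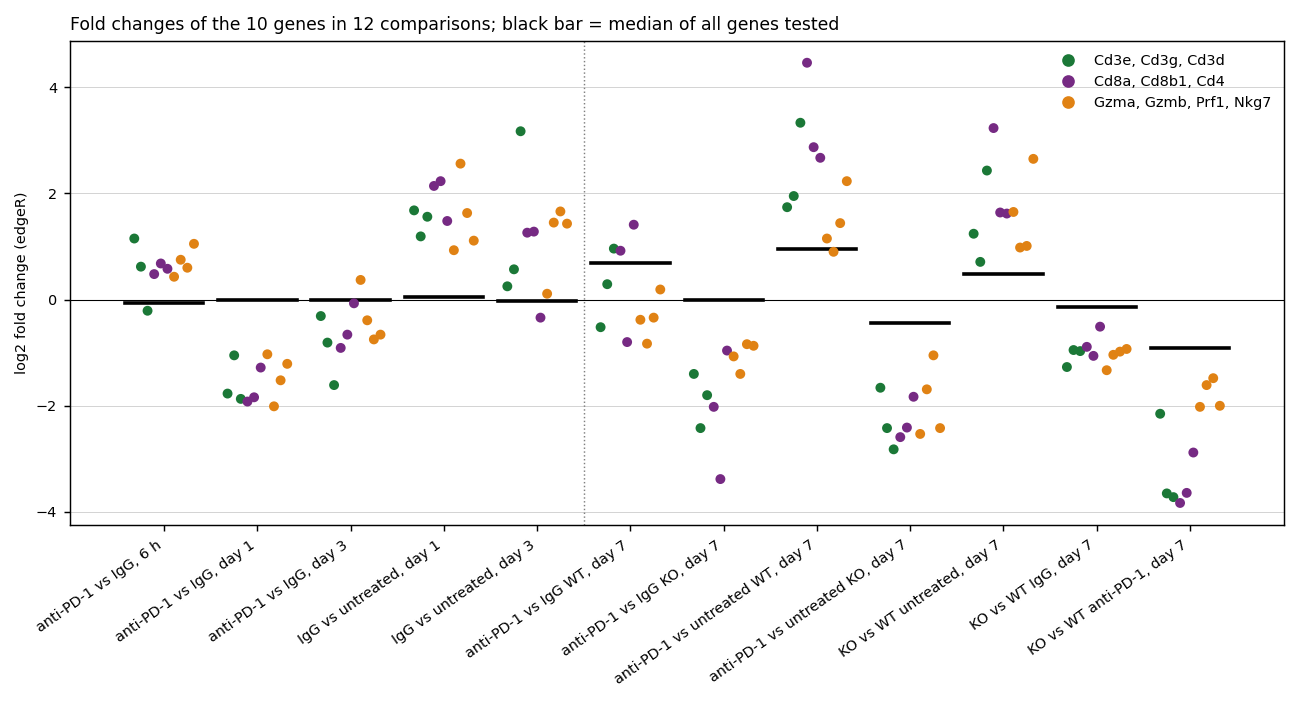
Log2 fold changes of the 10 genes on the y axis in 12 comparisons on the x axis, 1 point per gene, coloured by role (CD3 chains green, coreceptors purple, granule genes orange), with a black bar at the median over all genes tested. The points lie above the bar for IgG against untreated at day 1 and below it for KO against WT after anti-PD-1.

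Host genotype was compared within each treatment. Among untreated tumors all 10 genes were higher in those labelled KO, with a median of 1.63 beside 0.49. At an unadjusted p under 0.05 stood 3 of 10 beside 13.1%, and 5 of 10 did not overlap beside 9.73%. Cd8a differed by 3.23 ± 1.02 (edgeR adjusted p = 0.206) and Cd4 by 1.62 ± 0.678 (0.299), and 0 of 10 passed by edgeR, which called 0.587% of all genes, while DESeq2 called Cd8a, 1 of 10 beside 1.84% of all genes. Without replicate 1 of untreated KO tumors, 8 of 10 were higher and the median was 1.36, and without all 3 libraries the same count and median were found, with Cd8a at 3.13. After IgG all 10 were lower in KO, with a median of −0.98 beside −0.14, Cd3e at −1.27 ± 0.643 and Gzma at −1.33 ± 0.794 (edgeR adjusted p = 0.626), and 0 of 10 passed by edgeR (0% of all genes called, 0 of 10 at an unadjusted p under 0.05) or DESeq2.

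After anti-PD-1 all 10 genes were lower in the tumors labelled KO, with a median of −2.51 beside −0.91 over all genes. At an unadjusted p under 0.05 stood 7 of 10 beside 26.6% of all genes, and 8 of 10 did not overlap beside 17%, the exceptions being Gzmb and Prf1. Cd4 differed by −2.88 ± 0.706 and Cd8a by −3.83 ± 1.03, each with an edgeR adjusted p of 0.123, and Gzmb by −1.61 ± 0.875 (0.187). By edgeR 0 of 10 passed (0% of all genes called), and by DESeq2 6 of 10 did, all of them receptor genes (Cd3e, Cd3g, Cd3d, Cd8a, Cd8b1 and Cd4), beside 6.31% of all genes. The median was −1.77 with the receptor-gene rate as a covariate, −2.44 with that rate subtracted from the counts, and −2.34 without the 3 libraries in which it was highest, a fit that leaves 1 anti-PD-1 WT tumor. All 10 genes were lower in each of these fits, and 0 of 10 passed. Averaged over genotypes, anti-PD-1 against IgG had a median of −0.65 beside 0.24, Cd3e at −0.96 ± 0.456 and Cd8b1 at −2.09 ± 0.989, with 2 of 10 lower at an unadjusted p under 0.05 beside 3.96%, and 0 of 10 passed by edgeR (0% of all genes called) or DESeq2. Averaged over treatments, KO against WT had a median of −0.58 beside −0.19, Cd3g at −1.3 ± 0.552 and Cd3e at −0.73 ± 0.372, 1 of 10 stood at an unadjusted p under 0.05 beside 7.3%, and 0 of 10 passed by edgeR (0.00973% of all genes called) or DESeq2. Without the 3 libraries these averaged medians were −0.81 and −0.71.

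**Figure D5:**
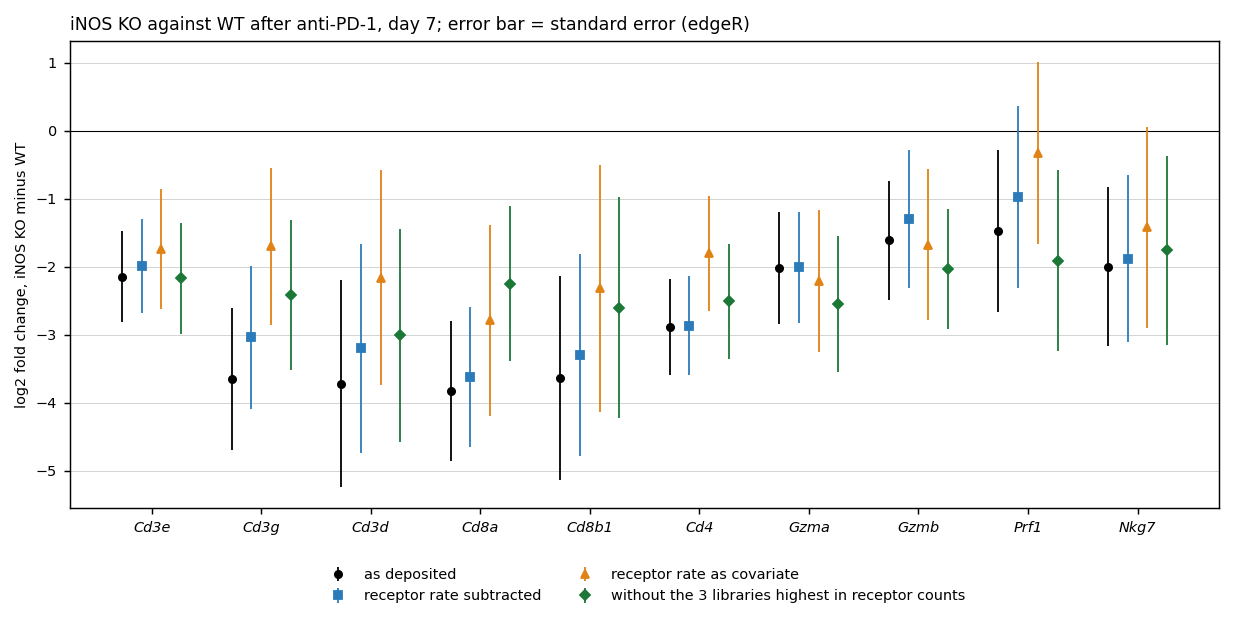
Log2 fold change with SE (bars) of each of the 10 genes between tumors labelled KO and WT after anti-PD-1, under 4 settings: as fitted, with the receptor-gene rate as a covariate, with that rate subtracted, and without the 3 libraries highest in it. All values lie below 0.

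Because untreated tumors of the genotypes lay on opposite sides of the anti-PD-1 ones, the genotype difference in the anti-PD-1 effect over untreated was also tested, a comparison added after the values had been seen. It was lower in the tumors labelled KO for all 10 genes, with a median of −4.43 beside −1.36 over all genes. Here 6 of 10 passed edgeR's test, beside 22.4% of all genes, and 9 of 10 stood at an unadjusted p under 0.05, beside 37.3%. Cd8a differed by −7.06 ± 1.45 (edgeR adjusted p = 0.0207) and Cd4 by −4.5 ± 0.976 (0.024), where the Cd8a value rests on 0, 4 and 11 counts in untreated WT tumors. The CD3 chains differed by −3.39 ± 0.932 (Cd3e, 0.0335), −4.37 ± 1.39 (Cd3g, 0.0427) and −6.16 ± 2.09 (Cd3d, 0.0464). Of the granule genes Gzma passed, at −3.67 ± 1.15 (0.0416). Nkg7 (edgeR adjusted p = 0.0506), Cd8b1 (0.0586), Gzmb (0.103) and Prf1 (0.245) did not pass. DESeq2 called 8 of 10, beside 14.3% of all genes. The edgeR count moved with the setting. It was 0 with the receptor-gene rate as a covariate, 2 with the rate subtracted (Cd8a and Cd4) and 0 without the 3 libraries, where the median was −3.91 beside 0 over all genes and Cd8a differed by −5.38 ± 1.51. It was 1 without replicate 3 of anti-PD-1 WT tumors and 3 without replicate 4, and 2 without any of 5 other tumors, namely replicates 1 and 2 of anti-PD-1 KO tumors, replicate 1 of untreated KO tumors, and replicates 1 and 3 of untreated WT tumors. Of all genes, 0% were called with the rate as a covariate and 2.24% with it subtracted. That share is not given here for single tumors left out. All 10 genes kept a negative difference with the rate as a covariate, with it subtracted, without the 3 libraries and without replicate 3 of anti-PD-1 WT tumors. The fit without the 3 libraries leaves 1 anti-PD-1 WT tumor.

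Other genes of T cell signaling moved alongside. Of 16 such genes all 16 were lower in KO after anti-PD-1, with a median of −2.45 beside −0.91 over all genes, and none passed. Among them were Lcp2, an adaptor, Cd2, an adhesion receptor, and Bcl11b, a T lineage factor. With the receptor-gene rate as a covariate the median of the 16 was −0.75, with 3 of them higher. The median was −1.94 with the rate subtracted, and −1.38 without the 3 libraries, a fit that leaves 1 anti-PD-1 WT tumor. In the added interaction 7 of the 16 passed, beside 22.4% of all genes, among them Cd247, Zap70, Cd6, Cd28, Themis and Bcl11b. Cd247, the zeta chain of the receptor complex, differed by −4.15 ± 1.03 (edgeR adjusted p = 0.0285) and Zap70, its kinase, by −6.02 ± 1.48 (0.0282). Of 14 further cytotoxic genes all 14 were lower in KO after anti-PD-1 with a median of −3.85, and 5 passed in the interaction, beside the same 22.4%. Among them were Gzmf, Gzmk and Gzmn, which had a median of 0 counts over the day 7 tumors. In KO against WT after anti-PD-1, the rate as a covariate gave these 14 genes a median of −1.39, with 3 higher. With the rate subtracted it was −3.07 over 11 genes, and without the 3 libraries −2.18 over 12. Of 5 genes for granule release, some of which pigment cells also use, 3 were higher and 2 lower with a median of 0.07. The receptor-gene rate would give 41.2% of the summed counts of the T cell signaling genes and 35.7% of those of the further cytotoxic genes in replicate 3 of anti-PD-1 WT tumors. In the interaction with that rate as a covariate, 0 of 16 and 0 of 14 passed by edgeR (0 and 2 lower at an unadjusted p under 0.05). With the rate subtracted it was Zap70 and Bcl11b of 16 and 0 of the 11 that could then be tested (7 and 7), beside 2.24% of all genes. Without the 3 libraries it was 0 of 16 and 0 of 12 (5 and 2), beside 0.0188%.

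Markers of other cells shared parts of this pattern. In KO against WT after anti-PD-1, NK cell markers were lower for 8 of 8 genes (median −4.08), B cell markers for 6 of 7 (−4.86), dendritic cell markers for 5 of 5 (−2.95), regulatory T cell markers for 5 of 5 (−2.13), mast cell markers for 4 of 4 (−2.05), keratinocyte markers for 4 of 4 (−3.67), and neutrophil and lymph node markers for 2 of 2 tested each (−7.22 and −1.48). General leukocyte markers were lower for 5 of 5 with a smaller median of −0.56, macrophage markers for 3 of 5 (−0.24), and melanocyte markers were higher for 6 of 6 (0.46), as were muscle markers for 4 of 4 (1.99). None of these passed edgeR's test. Over all genes in this comparison, 32.4% were higher in KO and the median was −0.91. With the receptor-gene rate as a covariate, NK cell (−2.67) and mast cell markers (−2.69) kept low medians. B cell (−0.49), dendritic cell (−0.32), regulatory T cell (−0.39) and lymph node markers (−0.45) lay nearer 0. Keratinocyte (0.3) and neutrophil markers (1.17) turned positive. Without the 3 libraries, a fit that leaves 1 anti-PD-1 WT tumor, medians were −3.1 for NK cell, −1.01 for B cell and 0.6 for keratinocyte markers. The sum of the B cell markers was 8.16 to 34.9 CPM in anti-PD-1 WT tumors and 8.17 to 9.07 CPM in KO. The sum of the macrophage markers was 136 to 515 CPM and 107 to 363 CPM. Neutrophil markers had few reads, with summed counts of 1, 82 and 11 in replicates 2, 3 and 4 of anti-PD-1 WT tumors. The receptor-gene rate would give 0.9, 21.5 and 12.2 there, so their fold rests mainly on replicate 3. In the interaction, where 22.4% of all genes passed, 6 of 8 NK cell markers, 5 of 7 B cell markers and 3 of 5 dendritic cell markers passed. In replicate 3 of anti-PD-1 WT tumors the receptor-gene rate would give 43.7%, 41.8% and 47.1% of the summed counts of these lists. With that rate as a covariate none of the 3 lists had a gene that passed by edgeR (2 of 8, 0 of 7 and 1 of 5 lower at an unadjusted p under 0.05), and the same was found without the 3 libraries (6 of 8, 0 of 6 and 1 of 5). With the rate subtracted 1 NK cell marker, Klrk1, passed. The part of other cells in the result was not tested.

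Levels of the 10 genes were correlated across tumors, more loosely within the groups of day 7. As Pearson correlations of log2 levels over the 30 time-course tumors, the 45 pairs had a median of 0.63, from 0.36 for Cd8b1 with Gzma to 0.86 for Cd3e with Cd3g. Over the 18 tumors of day 7 the median was 0.58, from 0.27 for Cd8a with Prf1 to 0.84 for Cd3d with Cd4, and after removing group means it was 0.33, from −0.24 for Cd8a with Prf1 to 0.77, compared with 0.62 in the time course, from 0.29 to 0.87. All pairs share library, depth and the receptor-gene rate. Of the summed counts of the 10 genes, that rate would give up to 10.8% in the time course (replicate 2 of anti-PD-1 at day 1). At day 7 it would give up to 34.3% (replicate 3 of anti-PD-1 WT tumors). Averaged as a z score over the 10 genes, replicate 4 of IgG at day 1 (1.91), replicate 3 of IgG at day 3 (1.75) and replicate 5 of anti-PD-1 at 6 hours (1.14) stood highest in the time course. At day 7 replicate 3 of anti-PD-1 WT tumors (1.35) stood highest and replicate 2 of anti-PD-1 KO tumors (−1.26) lowest.

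Genes whose levels were most like this mean z score were named by Pearson's r. Over the 30 tumors of the time course, among 15100 genes, they were Sh2d2a (0.924), Ikzf3 (0.92), Itgal (0.917), Il2rb (0.902), Dnase1l3 (0.894), Slamf7 (0.879), Cd27 (0.876), Ms4a4b (0.869), Irf8 (0.862) and Cxcl16 (0.854). Over the 18 tumors of day 7, among 15893 genes, they were Gprin3 (0.896), Cd7 (0.893), Gsap (0.892), Tox (0.892), Rasgef1b (0.892), Eomes (0.887), Gimap3 (0.877), Ikzf3 (0.876), Lair1 (0.873) and Gm4759 (0.871). Ikzf3 was on both lists. The part of the receptor-gene rate in these correlations was not tested. In the time course the closest to Cd3e were Dnase1l3 and Trac, the T cell receptor alpha constant gene (both 0.853), and the closest to Gzmb were Trafd1 (0.903) and Il2rb (0.894). At day 7 Ms4a4b was the closest to Cd3e (0.849).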

How the data were processed

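Total RNA of whole tumors was sequenced from strand-specific libraries, 1 tumor per library. Per the labels and the methods, the authors trimmed reads with cutadapt 1.8.1, aligned them to mm10 with STAR 2.7.7a and estimated reads per gene with RSEM 1.3.0. The deposited table holds the authors' whole-number counts per gene, not normalized, and its name refers to featureCounts instead. Groups were taken from the sample titles, since other label fields conflict with them and the genotype field reads WT in all 48. Day 7 was taken from the methods, and D0 in the titles was read as 6 hours. The 10 genes and the other gene lists were chosen with earlier results of these data known.

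Separate fits were made for the 2 experiments in edgeR 4.0.16 (R 4.3.3), with TMM normalization, filterByExpr at a minimum count of 10 and 1 coefficient per group. The quasi-likelihood F-test was used, with Benjamini-Hochberg adjustment over all genes tested (26848 in the time course, 30837 at day 7) at a threshold of 0.05. The fits had 20 and 12 residual degrees of freedom. A test of the fit on simulated data used a smaller spread and changed only genes of higher counts. It therefore cannot speak for genes of low counts here. SE is the size of the log2 fold change divided by the square root of F. Folds are given for genes that passed, for the 2 smallest p values of a comparison, and for Cd8a and Gzmb where anti-PD-1 was compared with IgG and KO with WT after anti-PD-1. Of other lists, genes that passed are named, otherwise at most 3 with the highest mean CPM. The alternatives were DESeq2 size factors, the Wald test of DESeq2 1.42.0, no filter, only the compared groups, a replicate block, each tumor left out and, at day 7, 3 treatments of the receptor-gene rate. Levels use a log2 offset of 0.5. Replicate numbers did not pair samples: the median correlation of deviations between same-numbered tumors was −0.03 in the time course (65 pairs) and −0.02 at day 7 (36 pairs). No replicates were copies of each other. Coordinates are those of GENCODE vM21, to which all 55450 identifiers matched. Some genes that met the naming rule are not reported here.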

Additional observations from a re-analysis of the deposited data

Results flagged for a closer look

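The genotype difference in the anti-PD-1 effect over untreated tumors at day 7 passed edgeR's interaction test for 6 of the 10 genes. The log2 differences, KO minus WT, were −3.39 for Cd3e, −4.37 for Cd3g, −6.16 for Cd3d, −7.06 for Cd8a, −4.5 for Cd4 and −3.67 for Gzma. This comparison was added after the values had been seen, and 22.4% of all genes passed in it.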

How the results depend on the processing

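Of the 10 genes, 0 passed in 29 of the 30 comparisons, and the alternatives changed that count in 5 of them, all at day 7. For anti-PD-1 against untreated in WT it was 3 without the filter, 3 with DESeq2's Wald test and from 0 to 2 when leaving out 1 tumor, 2 without replicate 2 of anti-PD-1 WT tumors. For anti-PD-1 against untreated in KO it was 1 without the filter, for IgG against untreated in WT 2 without the filter, and for untreated KO against WT 1 without the filter and 1 with DESeq2. For KO against WT after anti-PD-1 it was 4 without the filter, 6 with DESeq2 and from 0 to 3 when leaving out 1 tumor, 3 without replicate 2 of anti-PD-1 WT tumors. DESeq2's Wald test called 5.73% of all genes for anti-PD-1 against untreated in WT. It called 1.84% for untreated KO against WT and 6.31% for KO against WT after anti-PD-1. The share of all genes is not given here for the other settings, so those counts are not read as particular to the 10 genes.

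For the added interaction, where 6 passed, the count was 1 with only the compared groups, 0 with the receptor-gene rate as a covariate, 2 with it subtracted, 0 without the 3 libraries highest in it, 7 with DESeq2 size factors, 8 with DESeq2's Wald test, and from 1 to 8 when leaving out 1 tumor. The lowest came without replicate 3 of anti-PD-1 WT tumors and the highest without replicate 2. It was 2 without replicates 1 or 2 of anti-PD-1 KO tumors, replicate 1 of untreated KO tumors, or replicates 1 or 3 of untreated WT tumors, and 3 without replicate 2 of untreated WT tumors or replicate 4 of anti-PD-1 WT tumors. The cause of these changes was not tested.

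Replicate numbers were shared between groups but did not pair the samples. With a replicate block the added interaction had 4 genes passed, and the count stayed at 0 in the 29 other comparisons. The share of all genes called with the block is not given here.

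Among the folds of single named genes, the direction turned in 9 cases, 8 of them on leaving out 1 tumor. Over the tumors left out, Cd8a in anti-PD-1 against IgG at 6 hours ran from −0.77 (without replicate 5 of anti-PD-1) to 1.25. At day 3 Prf1 ran from −1.35 to 0.05, Cd8a from −1.87 to 0.87 and Gzmb from −1.08 to 1.09, and the difference of day 3 from 6 hours from −2.4 to 0.37 for Cd8a and −1.87 to 0.32 for Gzmb, the highest each time without replicate 3 of IgG. Cd8b1 in anti-PD-1 against untreated at day 1 ran from −3.89 (without replicate 4 of anti-PD-1 tumors) to 1.2, with −0.19 without replicate 6 of untreated tumors. Cd8a in anti-PD-1 against IgG in WT at day 7 was −0.65 without the 3 libraries highest in receptor-gene counts. The median over the 10 genes also changed sign on leaving out 1 tumor in 10 comparisons. It ran from −1.4 to 0.73 for anti-PD-1 against IgG at day 3, −0.49 to 0.45 for the same in WT at day 7, −2.2 to 0.23 for the difference of day 3 from 6 hours in it, −0.12 to 1.2 and −0.3 to 1.79 for IgG against untreated at 6 hours and day 3, −0.46 to 0.71 and −0.26 to 0.92 for anti-PD-1 against untreated at days 1 and 3, −0.91 to 0.14 for untreated tumors at day 3 against 0 hours, and −0.19 to 0.57 and −0.13 to 0.84 for days 1 and 3 against 6 hours over all treatments. The groups held 3 tumors each, and at day 7 the median was 9.5 counts for Cd3d and 15.5 for Cd8b1. Cd3e had a median of 261 counts in the time course, with a within-group SD of 1.37 (log2). Small differences could therefore be missed, and the parts of depth and of spread between tumors in this were not tested.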
